A study of Mus musculus with 12 samples.

Results

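Endothelial cells line blood vessels, and the 8 genes Cdh5, Pecam1, Vwf, Tie1, Emcn, Flt1, Kdr and Tek are in common use as their markers. Vegfa and Vegfc encode secreted growth factors that act on such cells. These 10 genes were chosen by name, and all 10 were found among the 25887 genes of the 2 deposited tables. Their levels were followed through 12 RNA sequencing libraries to see whether they moved together, as they would if a varying number of endothelial cells had been sorted along with the cells of interest.

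The libraries were made from cells of the dermal papilla, a mesenchymal cluster that sits below each hair follicle, isolated from mice by fluorescence-activated sorting. In Smo* mice the dermal papilla holds an active, gain-of-function Smo, the membrane protein that passes on the Hedgehog signal, and WT mice are wild type. The 4 groups of 3 libraries were P28 Smo* (postnatal day 28, male, labelled anagen I-III), P28 WT (male, labelled Anagen VI), P20 Smo* (postnatal day 20, female, telogen) and P20 WT (female, telogen). Anagen is the growth stage of the hair cycle and telogen its resting stage, so genotype and stage cannot be told apart at P28, nor can age, sex and stage between P28 and P20. The sources used here give neither the promoter that restricts Smo* to the dermal papilla nor the markers used for sorting. Separate animals are not stated for the libraries of a group, so the spread behind each p-value may be partly or wholly technical.

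Reads on genes numbered 36323058 to 48926831 per library. Between 17337 and 17926 genes had a read in 11 libraries, against 15453 in P28 Smo* replicate 3, which stood apart. Smo lay at 7487 to 8694 normalized read counts in P28 Smo* and 5418 to 6144 in P28 WT, and at 6351 to 7528 in P20 Smo* and 5037 to 5225 in P20 WT. Reads of the added and the own copy of Smo were not told apart. Of 12 dermal papilla markers, Corin lay at 751 to 7856 in P28 Smo* and 69681 to 79819 in P28 WT, with the lowest value of P28 Smo* in replicate 3. It lay at 711 to 1044 in P20 Smo* and 416 to 766 in P20 WT. The 12 summed to 48376 to 335523 in P28 Smo* and 358347 to 421479 in P28 WT. At P20 they summed to 62575 to 89212 in Smo* and 43086 to 53002 in WT. The 12 did not share 1 direction. On the log2 scale, Smo* lay above WT for 2 and below for 10 at P28, and above for 8 and below for 4 at P20. Mean values at P20 in Smo* and WT were 14014 and 1229 for Hhip and 8297 and 2746 for Alx4. They were 2153 and 7906 for Notum and 2034 and 5762 for Crabp1.

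In blood vessels, Vegfa binds the receptor tyrosine kinases encoded by Flt1 (VEGF receptor 1, which holds the ligand with high affinity and signals weakly) and Kdr (VEGF receptor 2, the main signalling receptor). Vegfc acts through Flt4 and Kdr and is known above all for lymphatic growth. Tek encodes Tie2, the receptor of the angiopoietins, and Tie1 is its relative without a settled ligand. Cdh5 encodes VE-cadherin, the adhesion protein of endothelial junctions, Pecam1 encodes CD31 of the same junctions, Vwf a clotting protein that endothelial cells store and release, and Emcn a sialoglycoprotein of capillary and venous endothelium. The vessels around hair follicles are known to expand in anagen and to shrink back afterwards.

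The genes lie on several chromosomes (GRCm38, GENCODE annotation, all protein-coding). Cdh5 (ENSMUSG00000031871) spans chr8:104101625-104144511 on the plus strand, Pecam1 (ENSMUSG00000020717) chr11:106654217-106750628 on the minus strand, Flt1 (ENSMUSG00000029648) chr5:147561604-147726011 on the minus strand and Kdr (ENSMUSG00000062960) chr5:75932827-75978458 on the minus strand. Vwf (ENSMUSG00000001930) lies at chr6:125546774-125686679 on the plus strand, and Emcn (ENSMUSG00000054690) at chr3:137341067-137432185 on the plus strand. Tek (ENSMUSG00000006386) and Tie1 (ENSMUSG00000033191) share a chromosome, at chr4:94739289-94874976 on the plus strand and chr4:118471191-118490061 on the minus strand. Vegfa (ENSMUSG00000023951) lies at chr17:46016993-46032369 on the minus strand and Vegfc (ENSMUSG00000031520) at chr8:54077606-54187096 on the plus strand. Of the 10, only Cdh5 is overlapped by another annotated gene, Gm29682, an antisense gene on the opposite strand. It has no row in the tables, and the use of strand in counting is not stated, so reads from both strands may be joined under Cdh5.

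RefSeq promoter sequences (GRCm38.p6) matched 7 of the 10 genes. The last 150 bases before the RefSeq start are shown for Flt1 and Emcn. For these a difference of the Smo* effect between the ages was called, with limits for Emcn, as described further on. Bases are also shown for Kdr and Tek, where no such difference was called. Capitals mark AGGAAG on either strand, a core of binding sites for ETS factors, a family to which many regulators of endothelial genes belong.
Flt1 (chr5:147726012-147726161, minus strand): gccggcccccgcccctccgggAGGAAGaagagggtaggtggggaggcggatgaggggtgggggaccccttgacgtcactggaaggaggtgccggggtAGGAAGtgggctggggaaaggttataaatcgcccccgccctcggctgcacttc
Emcn (chr3:137340928-137341077, plus strand): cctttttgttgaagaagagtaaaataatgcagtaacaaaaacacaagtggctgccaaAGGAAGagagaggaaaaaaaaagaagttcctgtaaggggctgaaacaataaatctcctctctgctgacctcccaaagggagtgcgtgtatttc
Kdr (chr5:75978456-75978605, minus strand): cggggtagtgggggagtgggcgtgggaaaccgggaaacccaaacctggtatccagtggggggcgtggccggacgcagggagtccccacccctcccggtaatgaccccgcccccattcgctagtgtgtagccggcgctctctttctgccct
Tek (chr4:94739139-94739288, plus strand): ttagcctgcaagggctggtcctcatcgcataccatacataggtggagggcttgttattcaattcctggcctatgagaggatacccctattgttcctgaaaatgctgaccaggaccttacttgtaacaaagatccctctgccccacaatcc

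Over 250 bases before the start and on both strands, AGGAAG was found 2 times for Flt1, 2 times for Emcn and 1 time for Tie1, and in 29.5% of 32851 mouse promoters. CCGGAA, another ETS core, was found 1 time for Kdr, upstream of and running into the bases shown, and in 12.03% of promoters. ACGTG, the core letters of hypoxia response elements, was found in none of the 7 and in 16.6% of promoters. No promoter of the 7 held both ETS cores, so no matches of different motifs overlapped. These matches describe sequence, not binding.

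At P28, 4 of the 8 endothelial genes rose in Smo* libraries: Cdh5, Flt1, Vwf and Pecam1. Each lay higher in all 3 Smo* than in all 3 WT libraries. None of the 10 genes fell, and Vegfa and Vegfc did not pass the test. At P20 none of the 10 passed it, and Pecam1, Vwf, Tie1 and Emcn lay lower on average in Smo* while Cdh5 and Kdr lay higher. Among all 14757 genes tested at P28, 4.05% were called higher and 4.85% lower. At P20 these shares were 0.485% and 0.212% of 14645 genes. The median log2 fold change of the 8 endothelial genes was 1.96 at P28 and -0.43 at P20, where that of all genes tested was -0.0098 and 0.0025. Calls rest on limma with a mean-variance trend on log2(normalized read count + 1) and a Benjamini-Hochberg adjusted p under 0.05 over all genes tested. On this scale the change of genes with low counts is understated.

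**Figure D1:**
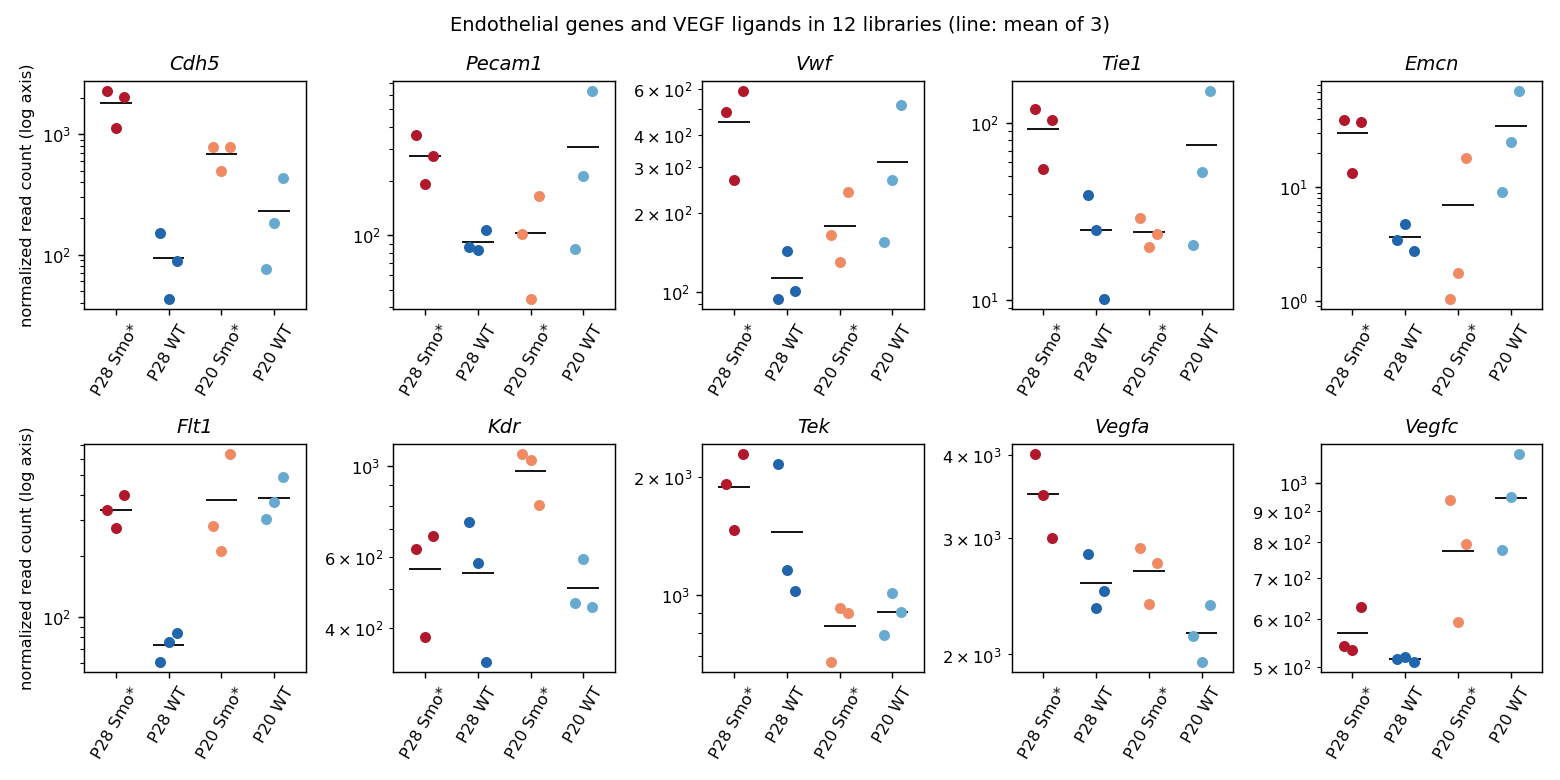
Normalized read counts (log axis) of the 10 genes, with 1 point per library and a line at the mean of 3, for P28 Smo*, P28 WT, P20 Smo* and P20 WT. Cdh5 is high in all 6 Smo* libraries, with 491 as the lowest and 431 as the highest WT value, whereas Pecam1, Vwf, Tie1 and Emcn are spread widely in P20 WT.

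The junction genes parted from each other. Cdh5 had 2271, 1126 and 2054 normalized read counts in P28 Smo* libraries, against 151, 42.8 and 88.4 in P28 WT libraries. At P20 it had 781, 491 and 782 in Smo* libraries, against 75.7, 184 and 431 in WT libraries. The Smo* libraries thus lay above the WT libraries at both ages, without overlap. The difference was called at P28 (a log2 fold change of 4.37 with SE 0.45, limma adjusted p = 0.00125) and not at P20 (1.87, SE 0.54, limma adjusted p = 0.226). The call at P28 held in all 17 alternatives, with fold changes of 2.86 to 4.80 on the log2 scale.

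Pecam1 had 358, 192 and 275 normalized read counts in P28 Smo* libraries, against 86.2, 83.1 and 108 in P28 WT libraries. In the P20 libraries it had 102, 44.4 and 164 in Smo* libraries, against 83.7, 214 and 627 in WT libraries. The groups were apart at P28 and overlapped at P20, where WT replicate 3 was far above the rest. The rise at P28 was 1.53 on the log2 scale (SE 0.28, limma adjusted p = 0.0146), and the P20 difference was not called (-1.30, SE 0.71, limma adjusted p = 0.555). Without P28 WT replicate 1 or 2 the Pecam1 call ended, at limma adjusted p = 0.0507 and 0.0646, and in a fit of all 12 libraries at 0.115.

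Vwf, the stored clotting protein, had 488, 268 and 586 normalized read counts in P28 Smo* libraries, against 93.9, 144 and 100.4 in P28 WT libraries. At P20 its values were 165, 129.8 and 242 in Smo* libraries, against 155, 268 and 521 in WT libraries. Again the groups were apart at P28 only. Its rise at P28 was 1.93 (SE 0.32, limma adjusted p = 0.0105), and at P20 the difference was -0.68 (SE 0.42, limma adjusted p = 0.605).

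Emcn and Tie1 were the least abundant members. Emcn had 39.7, 13.3 and 37.4 normalized read counts in P28 Smo* libraries, against 3.41, 4.75 and 2.76 in P28 WT libraries, which are 3 to 4 reads each. Its P20 values were 1.03, 1.74 and 18.3 in Smo* libraries, from 1 to 20 reads, against 9.04, 24.98 and 70.3 in WT libraries. The P28 groups were apart, yet the change did not pass the test (2.62, SE 0.73, limma adjusted p = 0.0640). At P20 it was -2.48 (SE 1.02, limma adjusted p = 0.410). Tie1 had 120.1, 55.0 and 104 in P28 Smo* libraries, against 39.3, 24.9 and 10.1 in P28 WT libraries. At P20 its values were 28.9, 20.04 and 23.7 in Smo* libraries, against 20.3, 53.1 and 151 in WT libraries. Tie1 passed the test at neither age (1.98, SE 0.56, limma adjusted p = 0.0668 at P28, and -1.17, SE 0.64, limma adjusted p = 0.555 at P20). Both were called at P28 by DESeq2 and in the authors' deposited table, and Emcn also by edgeR (adjusted p = 0.0363), with Emcn at an adjusted p of 0.0293 and Tie1 at 0.0204 in that table.

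The receptors of Vegfa did not move as a pair. Flt1 had 338, 274 and 398 normalized read counts in P28 Smo* libraries, against 60.6, 76.0 and 83.8 in P28 WT libraries. The P20 values were 282, 213 and 633 in Smo* libraries, against 304, 369 and 489 in WT libraries. P28 WT was the low group, below all 9 other libraries. Flt1 rose by 2.18 at P28 (SE 0.24, limma adjusted p = 0.00165), a call kept in all 17 alternatives, and differed by -0.18 at P20 (SE 0.38, limma adjusted p = 0.909).

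Kdr had 625, 379 and 676 normalized read counts in P28 Smo* libraries, against 731, 577 and 331 in P28 WT libraries. In P20 libraries Kdr had 1072, 1039 and 804 in Smo* libraries, against 461, 592 and 451 in WT libraries. Its groups overlapped at P28 and were apart at P20, the reverse of Flt1. The differences were 0.07 at P28 (SE 0.33, limma adjusted p = 0.918) and 0.95 at P20 (SE 0.17, limma adjusted p = 0.0517), so Kdr stayed just outside the threshold at P20. It was called there in 5 of 17 alternatives, among them DESeq2, the authors' deposited table (adjusted p = 0.0418) and the fit without Smo* replicate 3 (limma adjusted p = 0.0371).

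Tek, the angiopoietin receptor, had 1912, 1461 and 2280.3 normalized read counts in P28 Smo* libraries, against 2152, 1159 and 1022 in P28 WT libraries. At P20 Tek had 676.5, 926 and 902 in Smo* libraries, against 791, 1014 and 908 in WT libraries. The genotypes overlapped at both ages, with differences of 0.44 (SE 0.29, limma adjusted p = 0.364) at P28 and -0.12 (SE 0.16, limma adjusted p = 0.842) at P20.

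Neither growth factor passed the test between genotypes at either age. Vegfa had 4008, 3479.6 and 2999 normalized read counts in P28 Smo* libraries, against 2835, 2350.5 and 2496 in P28 WT libraries. At P20 it had 2892, 2381 and 2743 in Smo* libraries, against 2135, 1950.2 and 2374 in WT libraries. Smo* lay above WT in every library at both ages, by 0.44 at P28 (SE 0.14, limma adjusted p = 0.0934) and 0.31 at P20 (SE 0.12, limma adjusted p = 0.389). Vegfa was called at P28 without Smo* replicate 3 (0.55, limma adjusted p = 0.0346), by DESeq2, in the 12-library fit and in the authors' deposited table (adjusted p = 0.0235).

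Vegfc had 542, 533 and 627 normalized read counts in P28 Smo* libraries, against 516, 520.2 and 510.1 in P28 WT libraries. At P20 it had 937, 593 and 793 in Smo* libraries, against 775, 948 and 1113 in WT libraries. The genotype differences were 0.13 at P28 (SE 0.13, limma adjusted p = 0.561) and -0.30 at P20 (SE 0.20, limma adjusted p = 0.635). All P28 libraries but Smo* replicate 3 lay below all P20 libraries.

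For the count of 0 at P20, 4 of the 10 genes (Cdh5, Kdr, Emcn and Vegfa) had an unadjusted limma p under 0.05, beside 1669 of all 14645 genes tested. With edgeR none of the 10 passed, and with DESeq2 Kdr alone. Among all 14645 genes at P20, edgeR called 64 higher and 29 lower, and DESeq2 257 and 223. At P28, DESeq2 and the authors' deposited table each called 7 of the 10: the 4 named above with Tie1, Emcn and Vegfa. In bulk RNA, more cells of a type and more RNA of a gene per cell cannot be told apart.

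**Figure D2:**
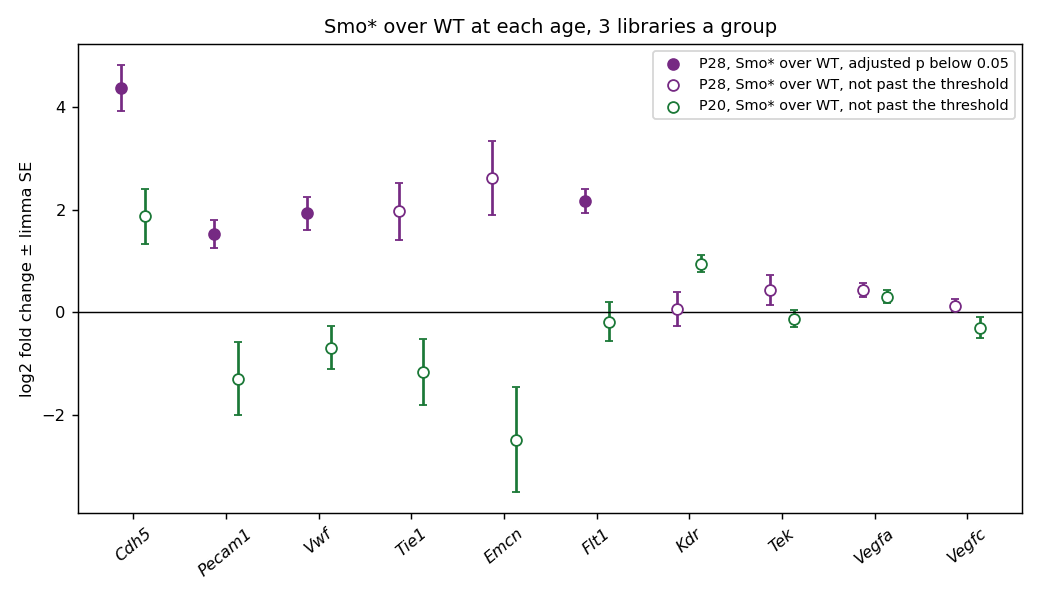
Log2 fold change of Smo* over WT (bars: limma SE, 3 libraries a group) for the 10 genes at P28 and at P20, with filled points for adjusted p under 0.05. Only Cdh5, Pecam1, Vwf and Flt1 at P28 are filled, and Pecam1, Vwf, Tie1 and Emcn lie above 0 at P28 and below 0 at P20.

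Leaving out P28 Smo* replicate 3, the library with fewer genes detected, kept the calls of Cdh5 (4.25), Flt1 (2.05), Vwf (1.70) and Pecam1 (1.504) at P28, at limma adjusted p from 0.00164 to 0.0195.

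The Smo* effect, taken with its sign, was higher at P28 than at P20 for 3 of the 10 genes in an interaction test over all 12 libraries. The difference of the effects was 2.35 for Flt1 (SE 0.48, limma adjusted p = 0.0187), 2.62 for Vwf (SE 0.59, limma adjusted p = 0.0279) and 5.10 for Emcn (SE 1.31, limma adjusted p = 0.0466). Of 14790 genes tested, 1.89% had a higher effect at P28 and 2.83% a lower one. Tie1 (3.14, SE 0.92), Pecam1 (2.82, SE 0.86) and Cdh5 (2.50, SE 0.80) did not pass, at limma adjusted p = 0.0728, 0.0825 and 0.0942. Kdr was the only one of the 10 below 0 (-0.89, SE 0.40, limma adjusted p = 0.220), and Tek, Vegfc and Vegfa lay at 0.56, 0.43 and 0.13.

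Emcn passed the filter of a mean of 10 through P28 Smo* and P20 WT, with group means of 30.1 and 34.8 normalized read counts, whereas P28 WT and P20 Smo* averaged 3.64 and 7.01. A gene that passes in this way has to differ between groups, so its call is no support for a count.

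The Flt1 call held in all 22 alternatives. For Vwf it ended without P20 Smo* replicate 2, P20 WT replicate 2, P28 Smo* replicate 1 or P28 WT replicate 3 (limma adjusted p from 0.0611 to 0.0778). Emcn lost it when any of 9 libraries was left out, among them P28 Smo* replicate 3 (0.0661), and also with no filter (limma adjusted p = 0.0542) and with edgeR (adjusted p = 0.0515). Without P20 WT replicate 1, the lowest WT library at P20 for 7 of the 8 endothelial genes, 6 genes were called: Cdh5, Pecam1, Tie1, Flt1, Vwf and Emcn.

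Between the ages within a genotype the genes again split. In Smo*, Tek was the only one of the 10 called, higher at P28 by 1.16 (SE 0.25, limma adjusted p = 0.0335), where 1.98% of genes were called higher and 1.47% lower. Flt1 differed by -0.01 and Kdr by -0.83 (SE 0.28, limma adjusted p = 0.113). The Tek call ended without any of the 3 P20 Smo* libraries or P28 Smo* replicate 1, at limma adjusted p from 0.0503 to 0.0983.

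In WT, Flt1 fell at P28 by 2.37 on the log2 scale (SE 0.34, limma adjusted p = 0.000458), Vegfc by 0.86 (SE 0.17, limma adjusted p = 0.00381) and Vwf by 1.33 (SE 0.41, limma adjusted p = 0.0340), where 13.5% of 14790 genes were called higher and 11.9% lower. Emcn (-2.54, limma adjusted p = 0.0637), Cdh5 (-1.12), Pecam1 (-1.28) and Tie1 (-1.31) did not pass. The calls of Flt1 and Vegfc held in all 15 alternatives, while that of Vwf ended without P20 WT replicate 2 or 3 or P28 WT replicate 1 or 3, with the change at -0.88 without P20 WT replicate 3. Without P20 WT replicate 1, 7 genes passed instead of 3. These comparisons share libraries with the genotype comparisons above, so they are not independent of them.

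Levels per transcript length differed widely among the 8 endothelial genes. Values are in TPM, in which recovered reads are scaled by exon length and by the library's total. In P28 Smo*, Cdh5 stood at 47.1 ± 13.9 TPM and Tek at 43.9 ± 8.24 (SD, n = 3), ahead of Kdr at 6.78 ± 1.68, Pecam1 at 4.82 ± 1.24, Vwf at 3.04 ± 1.02, Flt1 at 2.74 ± 0.424, Tie1 at 2.06 ± 0.667 and Emcn at 0.604 ± 0.275. Ranges of neighbours overlapped from Cdh5 to Tek and from Kdr to Tie1. In P28 WT, Tek led at 36.02 ± 15.3 TPM, followed by Kdr at 7.06 ± 2.48, Cdh5 at 2.66 ± 1.55, Pecam1 at 1.76 ± 0.353, Vwf at 0.820 ± 0.157, Flt1 at 0.642 ± 0.123, Tie1 at 0.586 ± 0.342 and Emcn at 0.0785 ± 0.0174. There the ranges of neighbours overlapped for Cdh5 and Pecam1, Vwf and Flt1, and Flt1 and Tie1, and were apart elsewhere.

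At P20 the order in Smo* was Tek at 22.7 ± 4.22 TPM, Cdh5 at 20.8 ± 4.99, Kdr at 13.7 ± 1.84, Flt1 at 3.58 ± 2.21, Pecam1 at 2.13 ± 1.26, Vwf at 1.43 ± 0.478, Tie1 at 0.628 ± 0.103 and Emcn at 0.168 ± 0.235. Neighbours overlapped there for Tek and Cdh5, Flt1 and Pecam1, and Pecam1 and Vwf. In P20 WT it was Tek at 21.3 ± 2.96, Kdr at 6.17 ± 1.05, Cdh5 at 6.11 ± 4.83, Pecam1 at 5.52 ± 5.08, Flt1 at 3.19 ± 0.792, Vwf at 2.18 ± 1.31, Tie1 at 1.70 ± 1.55 and Emcn at 0.717 ± 0.656. All neighbours from Kdr to Emcn overlapped in P20 WT. Of the growth factors, Vegfa stood above all 8 endothelial genes in each group, and Vegfc stood below Tek and Cdh5 in P28 Smo* and below Tek in P28 WT. Vegfa had 89.9 ± 12.1 TPM in P28 Smo*, 70.4 ± 8.64 in P28 WT, 79.6 ± 6.92 in P20 Smo* and 55.8 ± 5.36 in P20 WT, and Vegfc had 25.5 ± 2.23 in P28 Smo*, 24.8 ± 1.17 in P28 WT, 40.3 ± 8.30 in P20 Smo* and 42.9 ± 8.07 in P20 WT.

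**Figure D3:**
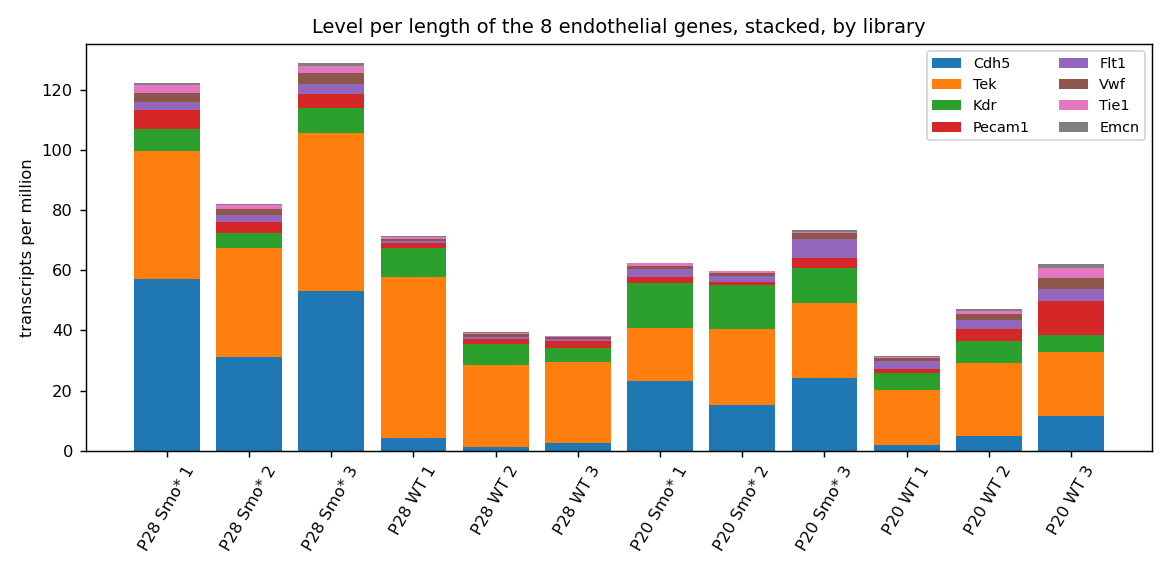
TPM of the 8 endothelial genes, stacked, for each of the 12 libraries (replicates 1 to 3 of P28 Smo*, P28 WT, P20 Smo* and P20 WT). Tek, Kdr and Cdh5 make up 61.8% to 94.6% of each bar, and Cdh5 25.2% to 46.6% in Smo* and 2.87% to 18.4% in WT libraries.

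The sum of the 8 genes was 81.9 to 129 TPM in P28 Smo*, 38.2 to 71.3 in P28 WT, 59.8 to 73.4 in P20 Smo* and 31.5 to 62.2 in P20 WT. Tek, Kdr and Cdh5 together took 61.8% to 94.6% of it. The share of Cdh5 alone was 25.2% to 46.6% in the 6 Smo* libraries and 2.87% to 18.4% in the 6 WT libraries.

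Cells of 1 kind sorted along in varying number would keep their genes in 1 ratio, so each gene was set against Pecam1. Pecam1 and the ratios were chosen after their values had been seen and carry no test. Reads of Cdh5 per read of Pecam1 were 5.88 to 7.47 in P28 Smo*, 0.514 to 1.75 in P28 WT, 4.76 to 11.1 in P20 Smo* and 0.687 to 0.905 in P20 WT. The 6 Smo* libraries lay above the 6 WT libraries at both ages, while Pecam1 itself ran from 44.4 to 627 normalized read counts over the 12 libraries.

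Within P20 WT, by contrast, Pecam1 ranged from 83.7 to 627 normalized read counts. There the ratio of Tie1 stayed at 0.241 to 0.248 and that of Emcn at 0.108 to 0.117. Replicate 1 of that group held 18 reads of Tie1 and 8 of Emcn, so counting error leaves the closeness of these ratios uncertain. In P28 Smo* the Tie1 ratio was 0.287 to 0.377 and the Emcn ratio 0.0693 to 0.136. In P28 WT the ratios were 0.0940 to 0.455 for Tie1 and 0.0256 to 0.0571 for Emcn, and in P20 Smo* 0.144 to 0.451 and 0.0101 to 0.111, at few reads. Vwf per Pecam1 was 1.36 to 2.13 in P28 Smo*, 0.932 to 1.73 in P28 WT, 1.47 to 2.92 in P20 Smo* and 0.831 to 1.85 in P20 WT, so all 4 groups overlapped. The ratio of Tek ran from 5.34 to 8.30 in P28 Smo* and 9.49 to 24.96 in P28 WT, and from 5.49 to 20.8 in P20 Smo* and 1.45 to 9.46 in P20 WT. That of Kdr ran from 1.74 to 2.46 in P28 Smo* and 3.07 to 8.48 in P28 WT, and from 4.89 to 23.4 in P20 Smo* and 0.719 to 5.51 in P20 WT. That of Flt1 ran from 0.945 to 1.45 in P28 Smo* and 0.703 to 0.914 in P28 WT. At P20 the Flt1 ratio ran from 2.76 to 4.78 in Smo* and 0.779 to 3.64 in WT. None of Tek, Kdr and Flt1 kept a steady ratio within P20 WT.

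**Figure D4:**
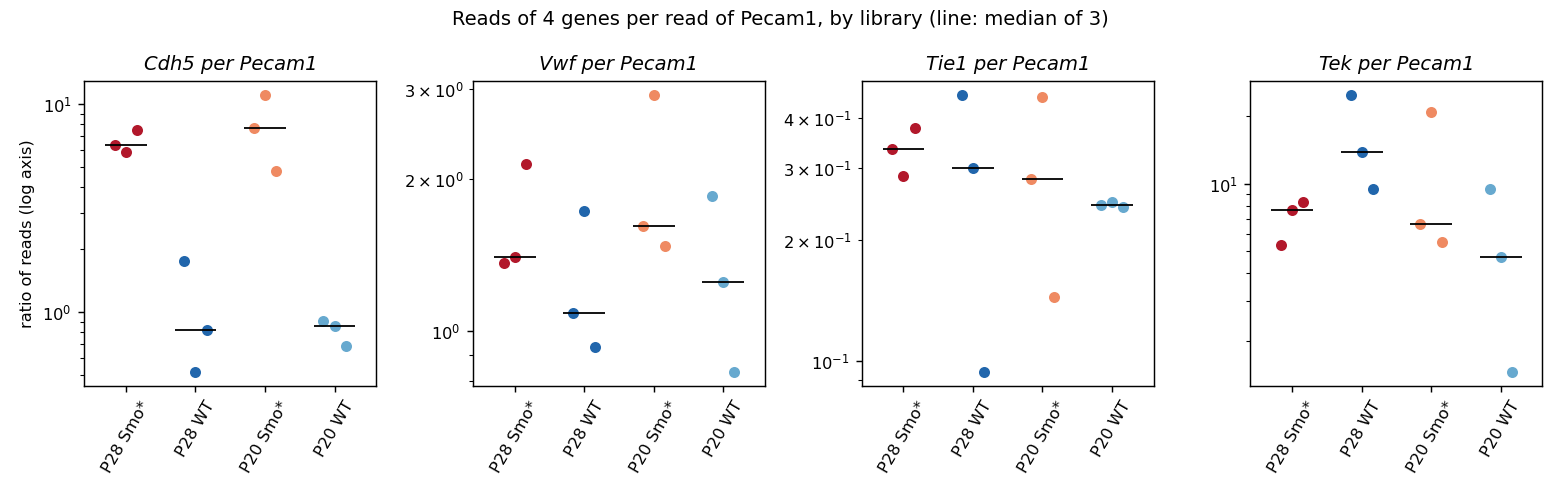
Reads of Cdh5, Vwf, Tie1 and Tek per read of Pecam1 (log axes), with 1 point per library and a line at the median of 3, for P28 Smo*, P28 WT, P20 Smo* and P20 WT. The Cdh5 ratio is 4.76 to 11.1 in the 6 Smo* and 0.514 to 1.75 in the 6 WT libraries. The Tie1 ratio in P20 WT is 0.241 to 0.248, on 18 to 157 reads of Tie1.

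Libraries of 1 group also differed in the same direction for several genes. P28 Smo* replicate 2 was the lowest of its group for 8 of the 8 endothelial genes. In P20 WT, replicate 3 was the highest for 6 (all but Kdr and Tek) and replicate 1 the lowest for 7 (all but Kdr). Some lists of other genes shared this order in P20 WT, as described further on. In P20 Smo*, replicate 3 was the highest and replicate 2 the lowest for 5 endothelial genes each. The P28 WT libraries had no common order, with no replicate highest or lowest for more than 4.

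These shared deviations were measured over the 12 libraries after removing each group's mean of log2(normalized read count + 1). Pearson r with Cdh5 was 0.80 for Pecam1, 0.78 for Tie1, 0.64 for Vegfc, 0.62 for Vwf, 0.56 for Emcn, 0.52 for Vegfa, 0.49 for Tek, 0.40 for Flt1 and 0.22 for Kdr. Spearman rho in the same order of genes was 0.76, 0.83, 0.53, 0.58, 0.62, 0.55, 0.43, 0.52 and 0.29. By an exact two-sided permutation test within groups, with adjustment over the 9 relations, 0 passed, at adjusted p from 0.118 (Pecam1) to 0.579 (Kdr) for r and from 0.101 to 0.452 for rho. The unadjusted exact p was under 0.05 for Pecam1 (0.0131) and Vegfc (0.0448). The smallest p that these permutations can give is 0.000772.

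Without the 2 libraries farthest from the median of Cdh5 (P28 WT replicate 2 and P20 WT replicate 1), r was 0.77 for Pecam1, 0.91 for Tie1, 0.82 for Vwf, 0.63 for Vegfa, 0.61 for Vegfc, 0.59 for Emcn, 0.42 for Flt1, 0.39 for Kdr and 0.38 for Tek. In the P28 libraries alone r was 0.76 for Tek, 0.53 for Pecam1, 0.46 for Tie1, 0.03 for Vwf and -0.02 for Flt1. In the P20 libraries alone it was 0.18 for Tek, 0.95 for Pecam1, 0.98 for Tie1, 0.96 for Vwf and 0.56 for Flt1. Within 1 age the smallest exact permutation p is 0.0278 and 0 of 9 relations passed after adjustment at either age, so these r are descriptions.

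Set against Pecam1, a choice made after the values had been seen, r was 0.86 for Vwf, 0.80 for Cdh5, 0.80 for Emcn, 0.78 for Vegfc, 0.76 for Flt1, 0.70 for Tie1, 0.46 for Vegfa, 0.09 for Tek and -0.09 for Kdr. Spearman rho in that order was 0.78, 0.76, 0.72, 0.66, 0.83, 0.56, 0.45, -0.01 and -0.13. Vwf, Cdh5 and Flt1 passed by r (exact permutation adjusted p = 0.0486 each) and 0 passed by rho. Under trimmed-mean (TMM) scaling or quantile normalization 0 passed, at an exact permutation adjusted p of 0.0532 for each of the 3. With any 1 library left out at most 1 passed, while r ran from 0.75 to 0.92 for Vwf, from 0.64 to 0.91 for Cdh5 and from 0.67 to 0.82 for Flt1. The lowest r of Cdh5 and Vwf came without P20 WT replicate 3 and that of Flt1 without P20 Smo* replicate 2. Without both, the libraries farthest from the median of Pecam1, r was 0.72 for Vwf, 0.63 for Cdh5 and 0.63 for Flt1, and 0 passed, where the smallest exact permutation p is 0.00694. In this measure Tek and Kdr stood near 0 with Pecam1.

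**Figure D5:**
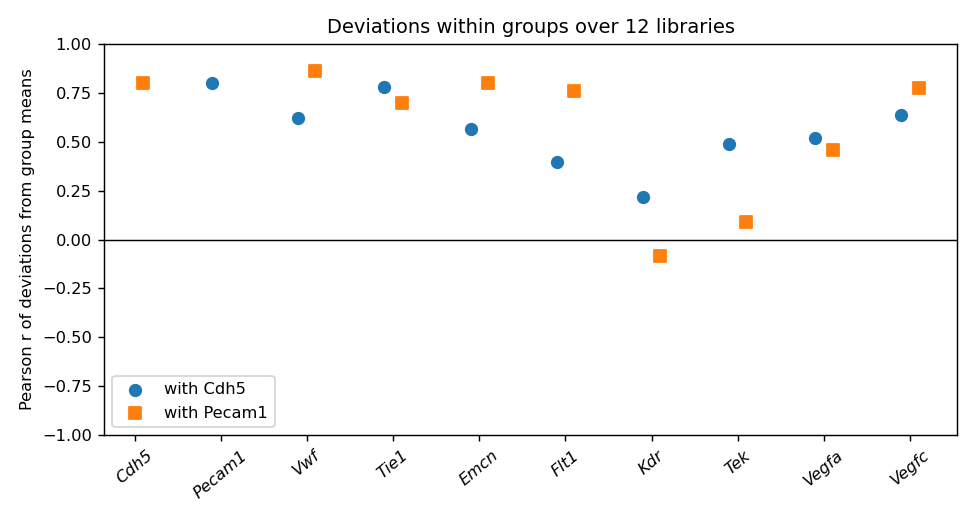
Pearson r of each gene's deviations from its group means with those of Cdh5 and of Pecam1, over 12 libraries. Pecam1, Vwf, Tie1 and Emcn lie between 0.56 and 0.86 with either gene, and Kdr and Tek at -0.09 and 0.09 with Pecam1.

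The genes most like the endothelial set were found by Pearson r, over the 12 libraries, with the mean of the 8 standardised log2 values among 12010 genes. They were Vwf (0.95), Podxl (0.94), Htra1 (0.94), Moxd1 (0.92), Radil (0.91), Lsp1 (0.91), Tie1 (0.91), Lrg1 (0.90), Pgm5 (0.90) and Efhd2 (0.89). Podxl, a sialomucin of podocytes and vessels, lay at 189.7 to 289.8 normalized read counts in P28 Smo*, 31.3 to 93.9 in P28 WT, 89.7 to 142 in P20 Smo* and 107 to 311 in P20 WT. Among the members themselves, r with the mean, to which each of the 8 contributes, was 0.84 for Emcn, 0.83 for Pecam1, 0.81 for Cdh5 and 0.72 for Flt1, against 0.48 for Vegfa, 0.43 for Tek, 0.30 for Vegfc and 0.11 for Kdr.

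Cdh5 and Pecam1 had different nearest genes, named here after their values were seen. For Cdh5 they were Krt19, a keratin (0.99), Sfrp5, a secreted Wnt inhibitor (0.98), and Cldn1, a tight junction protein (0.97). Sfrp5 lay at 842 to 1596 normalized read counts in P28 Smo*, 30.9 to 87.5 in P28 WT, 349 to 428 in P20 Smo* and 30.5 to 262 in P20 WT, so it was also high in all 6 Smo* libraries. For Pecam1 they were Cd93 (0.95), Adgrf5 (0.95) and Ptprb (0.92), all known from endothelial cells. Cd93 lay at 187 to 391 in P28 Smo*, 112 to 150.2 in P28 WT, 43.6 to 146 in P20 Smo* and 92.7 to 530.0 in P20 WT. The genes most like Vegfa were Il6st (0.93), Lmo1 (0.93) and Gramd4 (0.92), and those most like Vegfc were Zfp592 (0.94), Zmynd8 (0.94) and Pcnx (0.94). These r are over pooled groups and describe likeness of pattern only.

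Most other endothelial markers shared a direction at each age, with calls both ways at P28. Of 30 listed, 29 were tested at P28, where 3 rose and 2 fell, beside 4.05% and 4.85% of all genes. There 21 lay above 0 and 8 below, with a median log2 fold change of 0.65. Of these 29, 16 had an unadjusted limma p under 0.05, beside 3902 of all 14757 genes. EdgeR called 5 of the 29, beside 638 of all genes higher and 698 lower. DESeq2 called 12, beside 1197 of all genes higher and 1099 lower. At P20, 28 of the 30 listed were tested, where 1 rose and 0 fell, beside 0.485% and 0.212% of all genes. There 6 lay above 0 and 22 below, with a median of -0.63. Of these 28, 9 had an unadjusted limma p under 0.05, beside 1669 of all 14645 genes. EdgeR called 1 of the 28, beside 64 of all genes higher and 29 lower. DESeq2 called 4, beside 257 of all genes higher and 223 lower. Sox18, a transcription factor of vessels that is also known from the dermal papilla, rose at both ages. It had 958, 1704 and 1886 normalized read counts in P28 Smo* libraries against 361, 371 and 413 in P28 WT libraries (1.93, limma adjusted p = 0.00314). At P20 it had 1909, 5689 and 2403 in Smo* libraries against 599, 207 and 303 in WT libraries (3.14, limma adjusted p = 0.0309). Its P20 call ended without Smo* replicate 2 or WT replicate 2 or 3. Ptprb, a phosphatase that acts on Tie2 and VE-cadherin, and Adgrl4 also rose at P28. Adgrl4 had 125, 51.2 and 63.1 in P28 Smo* libraries against 21.3, 14.3 and 23.0 in P28 WT libraries, and its call ended in 8 of 16 alternatives.

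The markers that fell at P28 were Clec14a, an endothelial C-type lectin, and Fli1, an ETS transcription factor. Clec14a had 658, 1122 and 261 normalized read counts in P28 Smo* libraries against 2452, 3191 and 3931 in P28 WT libraries (-2.44, limma adjusted p = 0.0177). Fli1 had 389, 351 and 103 in P28 Smo* libraries against 784, 970.4 and 1219 in P28 WT libraries (-2.01, limma adjusted p = 0.0359). Both were lowest in P28 Smo* replicate 3, where dermal papilla markers were also low, and without that library both calls held. Leaving out P28 WT replicate 2 or 3 ended both, and P28 WT replicate 1 ended that of Fli1. Cldn5, a tight junction protein of endothelium, was near the floor of detection, at 48.5, 21.8 and 47.1 in P28 Smo*, 14.5, 5.94 and 1.84 in P28 WT, 9.30, 5.23 and 16.4 in P20 Smo* and 1.13, 29.1 and 37.6 in P20 WT.

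The effect of Smo*, taken with its sign, was higher at P28 than at P20 for 2 of 28 other endothelial markers tested, Plvap and Sox7. Of all genes tested, 1.89% had a higher effect at P28 and 2.83% a lower one. Plvap, a protein of endothelial pores, had 679, 460.0 and 685 in P28 Smo* libraries against 324, 144 and 356 in P28 WT libraries, and 355, 378 and 413 in P20 Smo* libraries against 595, 559 and 807 in P20 WT libraries. Its difference of effects was 1.98 (SE 0.42, limma adjusted p = 0.0220), lost without P20 WT replicate 3 or P28 Smo* replicate 1. That of Sox7, at 6.97 to 87.1 normalized read counts, ended with 9 of the 12 libraries left out in turn.

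Of 22 other genes of the VEGF and angiopoietin pathway, 3 rose and 2 fell at P28, beside 4.05% and 4.85% of all genes. At P20, 0 passed by limma, beside 0.485% of all genes called higher and 0.212% lower. Of the 22, 6 were below 0.05 there before adjustment, beside 1669 of all 14645 genes. EdgeR gave 0 calls among the 22 and DESeq2 2, beside 257 of all genes called higher and 223 lower by DESeq2. Sema3a, a guidance protein that binds neuropilins, had 1619, 1611 and 1877 normalized read counts in P28 Smo* libraries against 1022, 987 and 798 in P28 WT libraries (0.87, limma adjusted p = 0.00908). Thbs1, an inhibitor of vessel growth, had 33502, 15199.7 and 14312 in P28 Smo* libraries against 9412, 5545 and 7001 in P28 WT libraries (1.44, limma adjusted p = 0.0361), lost without any 1 of the 3 P28 WT libraries. The Thbs1 call held in 11 of 17 alternatives, and also ended in the fit of all 12 libraries, with a replicate block and in the authors' deposited table. The VEGF co-receptor Nrp1 also rose. Epas1, the hypoxia-regulated factor HIF-2 alpha, fell to 1451, 1064 and 1322 in P28 Smo* libraries, against 1989, 2145 and 2170.4 in P28 WT libraries (-0.73, limma adjusted p = 0.0179). This call ended without P28 WT replicate 2 or 3, in the fit of all 12 libraries and in the authors' deposited table. Fgf2, a vessel growth factor, fell by 0.77 (limma adjusted p = 0.0218), lost without P28 Smo* replicate 2 or any P28 WT library.

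Angpt1, the main activating ligand of Tek, had 709.7, 545 and 651 in P28 Smo* libraries against 717, 635 and 985 in P28 WT libraries, and 432, 354 and 413 in P20 Smo* libraries against 1023, 529 and 569 in P20 WT libraries, with no call. Between the ages in WT, 3 of the 22 were higher at P28 and 9 lower, beside 13.5% and 11.9% of all genes. Among the 9 were Nrp2 (-1.08, limma adjusted p = 0.000460), Sema3a (-1.20, limma adjusted p = 0.000499) and Egln3 (-1.51, limma adjusted p = 0.00114). In Smo*, Nrp2 alone was called, lower at P28 by -0.77 (limma adjusted p = 0.0257), beside 1.98% of all genes higher and 1.47% lower.

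Of 12 hypoxia target genes other than Vegfa, 2 rose and 1 fell at P28, beside 4.05% and 4.85% of all genes. At P20, 0 passed by limma, beside 0.485% of all genes called higher and 0.212% lower. There 1 had an unadjusted limma p under 0.05, beside 1669 of all 14645 genes, and edgeR and DESeq2 each called 0. Pfkfb3, a glycolytic regulator, had 2671, 2251 and 1986 in P28 Smo* libraries against 968, 928 and 948 in P28 WT libraries (1.27, limma adjusted p = 0.00137). The glucose transporter Slc2a1 had 1512, 1188 and 1749.8 in P28 Smo* libraries against 684, 748 and 727 in P28 WT libraries (1.03, limma adjusted p = 0.00781). Ndrg1 fell to 8432, 4205 and 3949 in P28 Smo* libraries, against 9571, 13435.5 and 11738 in P28 WT libraries (-1.14, limma adjusted p = 0.0453), a call that ended with 5 of 6 libraries left out in turn.

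Markers of other vessel and skin cells were read against the 4.05% of all genes called higher and 4.85% called lower at P28, and 0.485% and 0.212% at P20. An unadjusted limma p under 0.05 was found for 3902 of all 14757 genes at P28 and 1669 of 14645 at P20. EdgeR called 638 higher and 698 lower at P28, and 64 and 29 at P20. DESeq2 called 1197 higher and 1099 lower at P28, and 257 and 223 at P20. Of lymphatic endothelial markers 0 of 5 were called at P28 and 0 of 4 at P20 by limma, with 1 each at an unadjusted p under 0.05, 0 each by edgeR, and 1 at P28 and 0 at P20 by DESeq2. Mostly from Pdpn, they summed to 2811 to 4038 normalized read counts in P28 Smo* and 1952 to 2902 in P28 WT. At P20 they summed to 2035 to 3523 in Smo* and 2915 to 3227 in WT. Their defining gene Prox1 lay at 49.2 to 184 in P28 Smo*, 56.2 to 97.4 in P28 WT, 70.6 to 177 in P20 Smo* and 102 to 142 in P20 WT. Flt4, the lymphatic receptor of Vegfc, lay at 18.0 to 34.2 in P28 Smo*, 2.76 to 8.31 in P28 WT, 5.48 to 19.2 in P20 Smo* and 2.08 to 6.75 in P20 WT.

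Pericytes wrap the endothelium of small vessels. Of 9 pericyte markers 0 rose and 1 fell at P28, although 8 lay above 0 with a median log2 fold change of 0.35 and 5 had an unadjusted limma p under 0.05. The nearest to a call among the 8 were Kcnj8 (1.03), Abcc9 (0.97) and Des (0.77), at limma adjusted p from 0.0809 to 0.176. At P20, 6 of the 9 lay below 0 with a median of -0.31, and 0 passed (1 at an unadjusted limma p under 0.05, edgeR 0 and DESeq2 0). The list summed to 24648 to 33309 in P28 Smo*, 21771 to 28011 in P28 WT, 26104 to 35446 in P20 Smo* and 26258 to 38917 in P20 WT. Rgs5, the one pericyte gene below 0 at P28, lay at 2275 to 3042 in P28 Smo* and 3699.8 to 4977 in P28 WT (-0.65, limma adjusted p = 0.0424), and its call held in 9 of 17 alternatives. In P20 WT, Rgs5 was highest in replicate 3 at 6871, the library that was highest for 6 endothelial genes. Notch3, Des, Pdgfrb and Higd1b were also highest there. Kcnj8, Abcc9 and Cspg4 were instead highest in replicate 1 of that group, and Ndufa4l2 in replicate 2. Of 8 smooth muscle and dermal sheath markers 2 rose (Cnn1 and Mylk) and 1 fell (Itga8) at P28, and 0 passed at P20 by limma, edgeR or DESeq2, with 0 at an unadjusted p under 0.05. They summed to 20693 to 29148 in P28 Smo*, 22048 to 27054 in P28 WT, 11751 to 19492 in P20 Smo* and 11619 to 26698 in P20 WT.

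Immune markers had 0 of 6 called at each age by limma, edgeR and DESeq2, with 2 at an unadjusted p under 0.05 at P28 and 0 at P20. They summed to 1091 to 1367 in P28 Smo*, 966 to 1305 in P28 WT, 489.6 to 915 in P20 Smo* and 661 to 1649 in P20 WT, and 5 of the 10 listed were at 0 in P28 Smo* replicate 3 against 0 to 2 in the other libraries. Keratinocyte markers had 0 of 10 called at P28 and 0 of 9 at P20 by limma, with 5 and 1 at an unadjusted p under 0.05, 0 at each age by edgeR, and 2 and 0 by DESeq2. Their sums were 401 to 531 in P28 Smo*, 563 to 1013 in P28 WT, 265 to 607 in P20 Smo* and 509.8 to 1414 in P20 WT.

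Erythroid markers, a sign of blood carried along, had 0 of 5 called at P28 and 0 of 2 at P20 by limma, edgeR and DESeq2, with 0 and 1 at an unadjusted p under 0.05. They summed to 60.7 to 137 in P28 Smo*, 84.7 to 145 in P28 WT, 29.2 to 53.1 in P20 Smo* and 55.2 to 109.85 in P20 WT. Melanocyte markers had 0 of 4 called at P28 and 0 of 3 at P20 by all 3 tools, with 0 at an unadjusted p under 0.05. Of 5 Schwann cell markers 1 fell at P28 (Cdh19), and 0 passed at P20 by any tool.

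Adipocyte markers had 0 of 7 called at each age by limma and edgeR, with 4 at P28 and 2 at P20 at an unadjusted p under 0.05 and 1 each by DESeq2. The 8 listed summed to 13303 to 28633 in P28 Smo*, 14135 to 28081 in P28 WT, 10919 to 17664 in P20 Smo* and 8971 to 15357 in P20 WT, mostly from Lpl. Genes of mature fat cells were high in P28 Smo* replicate 3. There Cfd had 8165, Cidec 1310.2 and Adipoq 1018 normalized read counts, against 0 to 100.3 in the other P28 Smo* libraries and 0 to 3.68 in P28 WT libraries. That library was also the highest of its group for Flt1, Kdr, Vwf and Tek, and the calls of Flt1 and Vwf held without it. In P20 Smo*, replicate 3 was the highest for Cfd, at 1827, and for 5 of the 8 endothelial genes. In P20 WT, where replicate 3 was the highest for 6 endothelial genes, several other sums rose from replicate 1 to 3. They were 11619, 16058 and 26698 for smooth muscle and dermal sheath markers and 510, 589 and 1414 for keratinocyte markers. Adipocyte markers stood at 8971, 10239 and 15357, and hypoxia target genes at 27473, 29099 and 31728. Dermal papilla markers fell, at 53002, 48606 and 43086, and the sums of the other lists kept neither order. The part of these cell types in the values of the 10 genes was not tested.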

How the data were processed

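RNA of sorted mouse dermal papilla cells was purified with an RNeasy Plus Micro kit, depleted of ribosomal RNA and made into libraries with a NEBNext Ultra Directional kit, per the labels' protocols. The submitters' processing notes list, without roles, the builds GRCm38.p4 and mm10 and the tools Trimmomatic, TopHat2, DESeq2 and HTSeq. The deposited tables hold normalized read counts per gene and library (a signal: counts divided by a size factor by the authors). They also hold the authors' deposited log2 fold changes with standard errors, test scores and p-values, whose direction (WT over Smo*) was turned here to Smo* over WT. The deposited mean of each gene is that of all 12 libraries, so both tables share 1 normalization. Dividing by the step of 1 read gave whole reads for 100% of values within 0.01 reads.

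Values were tested as log2(normalized read count + 1) with limma 3.58.1 (R 4.3.3, mean-variance trend) over genes with a mean of at least 10, per age on 6 libraries, and on 12 libraries for the interaction and for P28 over P20. P-values were adjusted by Benjamini-Hochberg over all genes tested, with a threshold of 0.05. Alternatives were edgeR 4.0.16 and DESeq2 1.42.0 on the recovered reads, other scalings, pseudocounts and filters, pooled fits, a replicate block and leaving out each library. TPM used GENCODE exon lengths. Relations used exact permutations within groups (Python 3.11.15, NumPy 2.4.6). Likeness was measured over 12010 named genes with a mean of at least 50. Scripts were tested on simulated data. Symbols matched 25639 of 25887 identifiers (99.04%). Genes are named by fixed rules: all 10 members, up to 4 genes per list by adjusted p, and 10 or 3 most alike genes, with exceptions marked. The members and lists were chosen with earlier results of these data known.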

Additional observations from a re-analysis of the deposited data

Results flagged for a closer look

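The effect of Smo* differed between P28 and P20 by the interaction test for 3 of the 10 genes. The difference, P28 effect minus P20 effect on the log2 scale, was 2.35 for Flt1, from 2.18 at P28 and -0.18 at P20. For Vwf it was 2.62, from 1.93 at P28 and -0.68 at P20. For Emcn it was 5.10, from 2.62 at P28 and -2.48 at P20, on 1 to 20 reads in P20 Smo* and 3 to 4 reads in P28 WT libraries. Emcn passed the filter of a mean of 10 through the groups where it was high, so its call is no support for a count. The Emcn call held in 10 of 21 alternatives. Age, sex and hair cycle stage cannot be told apart in these differences.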

How the results depend on the processing

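At P20 the 10 genes had 0 calls, 1 with no filter, DESeq2 or the authors' deposited adjusted p (Kdr each time), and 0 to 1 with a library left out. At P28 the count of 4 became 7 with DESeq2 and in the authors' deposited table, and 3 to 5 with a library left out. There limma called 597 genes higher and 716 lower of 14757, and DESeq2 1197 and 1099. The authors' deposited table called 1446 and 1434 of 17160. For the difference of effects, 3 became 6 with DESeq2 and with a separate fit per age, and 1 to 6 with a library left out. The separate fits took p from a normal distribution, which makes no allowance for the few libraries behind each SE. They called 994 genes higher and 993 lower of 14295. DESeq2 called 704 and 778 of 14790, and the main fit 279 and 419 of 14790. For P28 over P20 in Smo*, 1 became 3 with DESeq2 and 0 in a fit of the 6 libraries of a genotype, and 0 to 2 with a library left out. In WT, 3 became 7 with DESeq2 and 2 to 7 with a library left out. Between the ages in Smo*, DESeq2 called 937 of all 14790 genes higher and 678 lower, against 293 and 218 with limma. In WT it called 2304 and 2052, against 2000 and 1761. Relations with Cdh5 past the threshold numbered 0, and 0 to 2 with a library left out: 1 without P28 WT replicate 1 or 2, and 2 (Pecam1 and Tie1) without replicate 3. With Pecam1 in place of Cdh5, chosen after seeing the data, there were 3. Signs turned only for changes that were not called: with a library left out, Flt1 at P20 ran from -0.63 to 0.15, Tek at P20 from -0.21 to 0.022, Kdr at P28 from -0.26 to 0.33, Flt1 between the ages in Smo* from -0.34 to 0.44 and Kdr between the ages in WT from -0.19 to 0.38, with -0.014 for that last change under quantile normalization. The labels state no pairs. A replicate block of nearest title numbers gave 2 calls at P20 (Cdh5 and Kdr), 4 at P28 and 4 for the difference of effects. Over all genes, the block called 129 higher and 110 lower of 14645 at P20 and 466 and 537 of 14757 at P28. For the difference of effects it called 272 and 345 of 14790. The cause of these changes was not tested. The lowest levels were those of Emcn and Tie1, at 2.76 to 4.75 and 10.1 to 39.3 normalized read counts in P28 WT, where counting error is largest.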

Other observations

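Of 28 other endothelial markers tested, Erg and Tspan7 were called higher at P28 than at P20 in both genotypes. Erg, an ETS factor of endothelial cells, was higher by 2.34 on the log2 scale in Smo* (limma adjusted p = 0.0270) and by 2.82 in WT. The call in Smo* held in 10 of 15 alternatives, and that in WT in all 15. In WT, 5 of the 28 were called higher and 2 (Plvap and Cd34) lower at P28, beside 13.5% and 11.9% of all genes, with 18 of the 28 below 0 and a median of -0.44. In Smo*, 2 were called higher and 0 lower by limma, beside 1.98% and 1.47% of all genes, with 26 of the 28 above 0 and a median of 0.78. Clec14a and Fli1 were higher at P28 in WT by 2.71 and 2.44, with both calls kept in all 15 alternatives, and are the genes that were lower in Smo* than in WT at P28. P28 WT, the group in which they were highest, was also the group in which Flt1 was lowest.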
